A study of Mus musculus with 10 samples.

Results

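The retinoid visual cycle was followed by RNA-seq through 9 genes, *Rbp3*, *Abca4*, *Rdh12*, *Rdh8*, *Rdh11*, *Rlbp1*, *Rpe65*, *Lrat* and *Rdh5*. They were picked by gene name, and all 9 were found among the 54532 genes of the deposited table. Retinas came from 2-month-old albino BALB/c mice, which the study's methods describe as homozygous for the albino allele of *Tyr* and wild type for *Rpe65*. All mice spent 12 h in the dark and then 1 day at 200 lux (normal light, NL) or at 15000 lux (high-intensity light, LD). NL retinas 1, 4, 5, 7 and 8 and LD retinas 1, 4, 6, 7 and 8 were sequenced, n = 5 each. The labels do not say whether each retina is from another mouse, so p-values measure the spread between these samples, which may be in part technical.

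The visual cycle regenerates the light-sensitive chromophore of the opsins. In photoreceptors, all-trans retinal released from bleached opsin is cleared from the discs and reduced to all-trans retinol, which crosses to the retinal pigment epithelium (RPE), where it is esterified, isomerized to the cis form and oxidized to cis-retinal that returns to the photoreceptors. Müller glia, which span the neural retina, also hold retinoid-binding proteins. The members were therefore grouped as photoreceptor genes (*Rbp3*, *Abca4*, *Rdh12*, *Rdh8*), a gene used in several cell types (*Rdh11*), a gene of Müller glia that the RPE also uses (*Rlbp1*) and RPE genes (*Rpe65*, *Lrat*, *Rdh5*).

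Promoters of all 9 members were found in the RefSeq table for GRCm38.p6. The 4 photoreceptor genes are shown because they differed in the size of their change, and *Rlbp1* and *Rpe65* because they stand for the other cell types. Each sequence is 5′ to 3′ on the gene's strand, from 130 to 31 bases before the start site. Capitals mark GGATTA, which is TAATCC on the other strand, the core bound by the photoreceptor factors CRX and OTX2, and CATGTG or its reverse complement CACATG, an E-box.
*Rbp3*, chr14:33953873-33953972, plus strand: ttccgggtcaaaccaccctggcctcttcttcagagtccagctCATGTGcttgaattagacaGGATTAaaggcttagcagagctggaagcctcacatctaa
*Abca4*, chr3:122044330-122044429, plus strand: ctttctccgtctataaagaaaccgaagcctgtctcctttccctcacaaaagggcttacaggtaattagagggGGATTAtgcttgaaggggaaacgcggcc
*Rdh12*, chr12:79208783-79208882, plus strand: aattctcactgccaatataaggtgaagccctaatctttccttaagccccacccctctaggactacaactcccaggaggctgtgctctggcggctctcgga
*Rdh8*, chr9:20818364-20818463, plus strand: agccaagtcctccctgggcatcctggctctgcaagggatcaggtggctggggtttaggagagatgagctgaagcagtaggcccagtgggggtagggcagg
*Rlbp1*, chr7:79387058-79387157, minus strand: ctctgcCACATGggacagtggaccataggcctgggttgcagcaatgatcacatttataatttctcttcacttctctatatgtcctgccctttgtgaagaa
*Rpe65*, chr3:159599051-159599150, plus strand: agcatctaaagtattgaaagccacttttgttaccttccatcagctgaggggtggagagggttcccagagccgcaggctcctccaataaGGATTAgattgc
In windows from 250 bases before to 50 bases after the start, searched on both strands, TAATCC was in 3 of the 9 members (*Rbp3*, *Abca4* and *Rpe65*) and in 7.06% of 32851 promoters. CATGTG was in *Rbp3*, *Rlbp1* and *Rpe65* and in 14.2% of promoters. TGCTGA, part of the element of NRL, was in *Rbp3*, *Rdh12*, *Rdh8* and *Rlbp1* and in 19.5% of promoters. CACGTG, another E-box, was in 7.15% of promoters and, among members, in a second *Rdh11* promoter. The 2 members that changed past the thresholds below, *Abca4* and *Rdh12*, shared none of these letters in their windows.

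Levels are FPKM (fragments per kilobase of gene, scaled to library size), so they can be compared between genes, and the table's values stand for 18965090 to 26832535 reads per retina. LD was set against NL in limma on log2(FPKM + 0.1), a scale that understates the change of low genes, with Benjamini-Hochberg adjustment over 24508 genes. A gene was called changed at an adjusted p under 0.01 and over 2-fold. Of the 9 members, 2 were called, both lower after LD, where 2.37% of all genes tested were called lower. At an adjusted p under 0.01 alone 3 of 9 were lower, against 7.74% of all genes, and in 5 of 9 every LD retina was below every NL retina, against 10.6% of all genes. The median log2 fold change of the 9 was -0.58, and that of all genes was -0.01.
LD-4 and LD-6 stand apart and closely resemble each other, with a chi-square per gene between their reads of 2.65, where 17 of the 20 pairs within a group were at 12.2 or more. NL-5 and NL-7 (2.87) and LD-1 and LD-7 (3.65) were also close. NL-1 and NL-8 had the most RNA of the pigment gene *Tyrp1*, 4.23 and 7.70 FPKM, while NL-4, NL-5 and NL-7 had no more than 1.32 FPKM. Values without LD-4 and LD-6 or without NL-1 and NL-8 come from alternatives chosen after the values were seen.

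**Figure D1:**
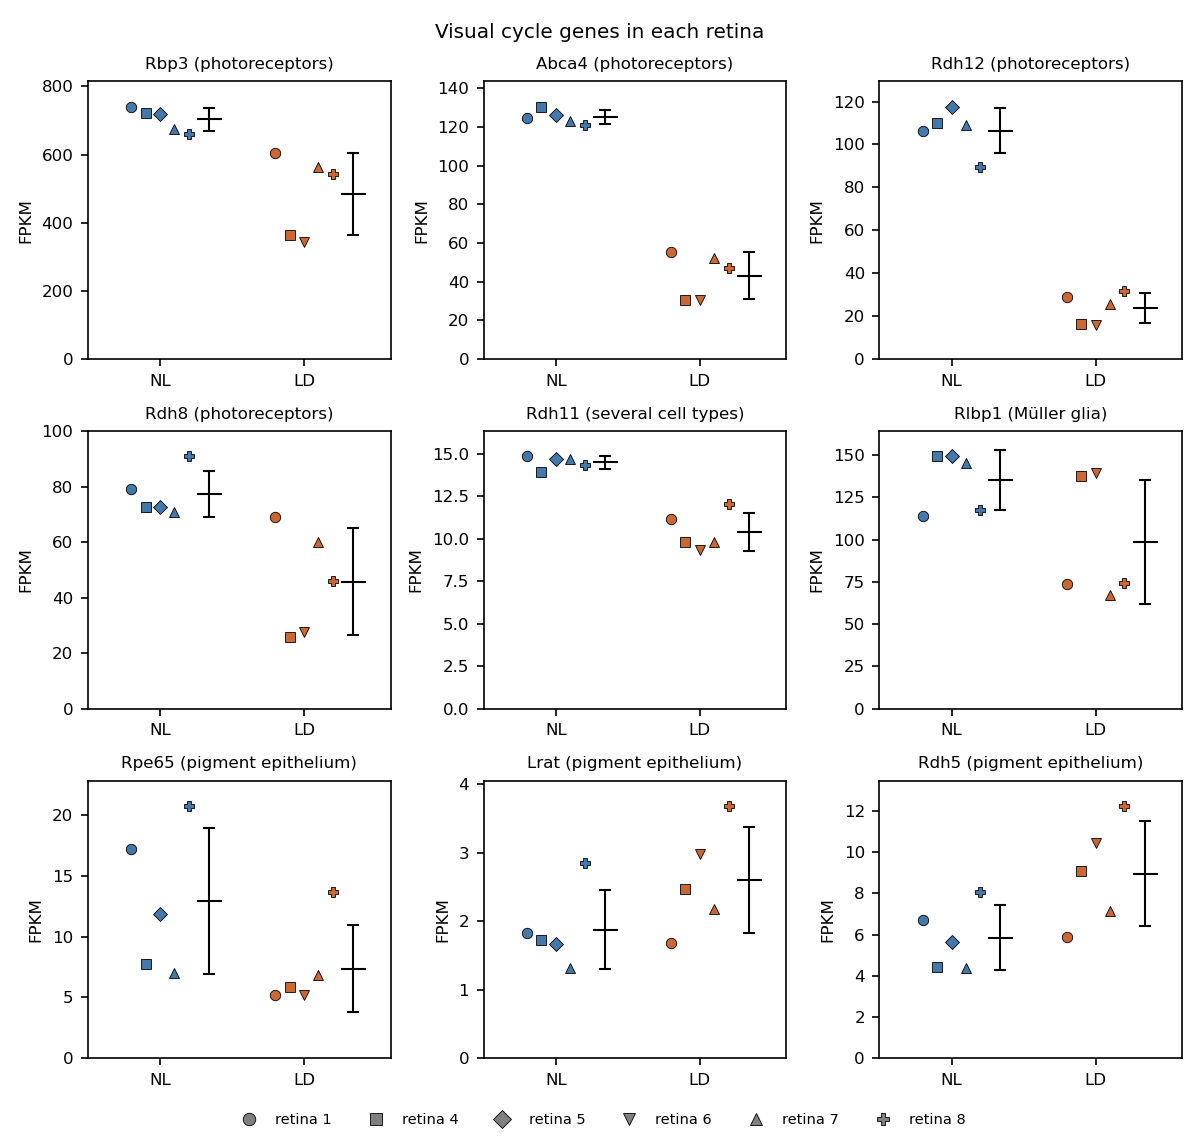
FPKM (vertical axis, from 0) of the 9 visual cycle genes in the 5 NL and 5 LD retinas; each point is 1 retina, its shape is the retina's number, and the bars are the mean and SD. The LD points lie below all NL points for *Rbp3*, *Abca4*, *Rdh12*, *Rdh8* and *Rdh11*, and overlap them for the other members.

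Of the 4 photoreceptor genes, *Rdh12* and *Abca4* were called lower after LD, at 22.3% and 34.5% of their NL means. *Rbp3* and *Rdh8* were lower in every LD retina than in every NL retina but did not pass the adjusted threshold. From whole-retina RNA alone, fewer photoreceptors and less RNA per photoreceptor cannot be told apart. By histology, the study reports that degeneration was not obvious in BALB/c retinas at this exposure. RNA per photoreceptor was not tested. Values below follow the order of retina numbers given above, and positions are on GRCm38.
*Rdh12*, on chromosome 12 from 79208914 to 79222665 on the plus strand, encodes a retinol dehydrogenase of the inner segment. It was at 106, 110, 118, 109 and 89.5 FPKM in the NL retinas and at 29.0, 16.5, 16.1, 25.6 and 31.6 FPKM in the LD retinas. The highest LD value was far under the lowest NL value, and LD-4 and LD-6 were the lowest. Mean levels were 106 ± 10.4 and 23.8 ± 7.13 FPKM (SD, n = 5 each), and the log2 fold change was -2.21 (standard error 0.19, limma adjusted p = 1.52e-05).
*Abca4*, on chromosome 3 from 122044443 to 122180123 on the plus strand, encodes the disc transporter that clears retinal conjugates. Its NL values were 125, 130, 126, 123 and 121 FPKM, and its LD values were 55.6, 30.6, 30.3, 52.0 and 47.2 FPKM. The NL retinas were nearly alike, every LD retina was lower, and LD-4 and LD-6 again had the least. Mean levels of 125 ± 3.59 and 43.1 ± 12.0 FPKM (SD, n = 5 each) gave a log2 fold change of -1.58 (standard error 0.17, limma adjusted p = 6.75e-05). On the opposite strand, the pseudogene *Gm43157* lies within it and the pseudogene *Gm43158* overlaps it and runs past its end. Whether the counting used strand is not given in the sources used here.
*Rdh8*, on chromosome 9 from 20818503 to 20826117 on the plus strand, encodes the outer segment dehydrogenase that reduces all-trans retinal. Levels of 79.1, 72.8, 72.6, 70.8 and 91.0 FPKM in the NL retinas stood against 69.2, 25.9, 27.8, 60.1 and 45.9 FPKM in the LD retinas. The groups came close to each other, with LD-1 just under NL-7, while LD-4 and LD-6 were far lower. The means were 77.3 ± 8.29 and 45.8 ± 19.2 FPKM (SD, n = 5 each), and the log2 fold change was -0.86 (standard error 0.26, limma adjusted p = 0.0306; exact permutation p = 0.00794, two-sided, the smallest that 5 against 5 allows). Without LD-4 and LD-6 the log2 fold change was -0.42 (adjusted p = 0.0595), and without LD-1 it was -1.03 with an adjusted p of 0.00853, past both thresholds.
*Rbp3*, on chromosome 14 from 33954003 to 33964216 on the plus strand, encodes the binding protein that carries retinoids between photoreceptors and RPE, and was the most abundant member. It was at 740.4, 723, 719, 675 and 659.9 FPKM in the NL retinas and at 604, 363, 344, 563 and 542 FPKM in the LD retinas. LD-4 and LD-6 stood well apart from the other LD retinas, which came nearer to the NL retinas. Mean levels of 704 ± 34.3 and 483 ± 121 FPKM (SD, n = 5 each) gave a log2 fold change of -0.58 (standard error 0.17, limma adjusted p = 0.0262; exact permutation p = 0.00794). Without LD-4 and LD-6 it was -0.30 (adjusted p = 0.0342), and after quantile normalization, which sets the distribution of values equal in all retinas, it was -0.14 (adjusted p = 0.616). By limma-voom on the reads behind these values it was -0.58 with an adjusted p of 0.00856, still under 2-fold.

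The 4 photoreceptor genes were not lower to the same degree. For each of the 6 pairs, the log2 ratio of both genes was compared between groups by a two-sided exact permutation test over the retinas, adjusted over the 6 pairs, with a threshold of 0.05 on the adjusted p, and 5 pairs differed (exact p = 0.00794, adjusted p = 0.00952 for each of the 5, with no overlap between the groups). The ratio of *Rbp3* to *Rdh12* was 1.63 higher on the log2 scale in LD than in NL retinas, and that of *Rbp3* to *Abca4* was 1.00 higher. *Abca4* in turn was higher relative to *Rdh12*, by 0.63. Of the dehydrogenases, *Rdh12* was lower relative to *Rdh8* by a log2 difference of -1.35. The transporter gene *Abca4* was lower relative to *Rdh8* by -0.72. *Rbp3* and *Rdh8* differed by 0.28 with overlapping groups (exact permutation p = 0.111, adjusted p = 0.111), which does not show that they moved alike. Each of the 5 pairs held *Rdh12* or *Abca4*, the called members. How often pairs of other genes differ in this way was not tested, so the count has no share to be set against. Without LD-4 and LD-6 the same count of 5 was found, with an adjusted p of 0.0429 for each. With the 3 closest pairs of retinas averaged, leaving 4 NL and 3 LD samples, no exact p could be under 0.0571.

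*Rdh11*, on chromosome 12 from 79174337 to 79192293 on the minus strand, encodes a dehydrogenase of retinal found in photoreceptors and in other cells, and is a neighbour and relative of *Rdh12*. How reads shared by related genes were counted is not given in the sources used here. Its values were 14.9, 13.9, 14.7, 14.7 and 14.3 FPKM under NL and 11.2, 9.79, 9.33, 9.80 and 12.0 FPKM after LD. The NL retinas hardly varied and all LD retinas lay below them, so that the log2 fold change of -0.48 (standard error 0.07) had a limma adjusted p of 4.51e-04 while staying under 2-fold.

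*Rlbp1*, on chromosome 7 from 79374870 to 79387048 on the minus strand, encodes the retinal-binding protein CRALBP of Müller glia and RPE. It was at 114, 149, 149, 145 and 117 FPKM in the NL retinas and at 73.7, 138, 139.6, 67.2 and 74.1 FPKM in the LD retinas. LD-1, LD-7 and LD-8 were below every NL retina, whereas LD-4 and LD-6, the retinas lowest in photoreceptor members, lay within the NL range. Over all retinas the means were 135 ± 17.7 and 98.5 ± 36.8 FPKM (SD, n = 5 each), and the log2 difference was -0.52 (standard error 0.22, limma adjusted p = 0.109; exact permutation p = 0.0952). Without LD-4 and LD-6 the log2 fold change was -0.90 and the adjusted p 5.37e-04, still under 2-fold.

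The RPE members had lower means than the photoreceptor members in both groups of these neural retina samples, and none of the 3 was called. RPE markers were above 0 in every retina, as given below, so removal of the RPE cannot be taken as complete. *Rpe65*, on chromosome 3 from 159599175 to 159625321 on the plus strand, encodes the isomerase of the cycle. It was at 17.2, 7.74, 11.8, 7.04 and 20.7 FPKM in the NL retinas and at 5.20, 5.84, 5.22, 6.86 and 13.7 FPKM in the LD retinas, which stood for 226 to 1035 reads. NL-1 and NL-8 were high, and 4 of the LD retinas were below every NL retina while LD-8 was not. Its log2 fold change was -0.78 (standard error 0.35, limma adjusted p = 0.128; exact permutation p = 0.0794), and without NL-1 and NL-8 it was -0.33 (adjusted p = 0.518).
*Rdh5*, on chromosome 10 from 128913593 to 128922888 on the minus strand, encodes the RPE dehydrogenase that oxidizes cis-retinol. It was at 6.71, 4.44, 5.65, 4.36 and 8.07 FPKM in the NL retinas and at 5.90, 9.08, 10.4, 7.14 and 12.2 FPKM in the LD retinas. LD-4, LD-6 and LD-8 were above every NL retina, and LD-1 and LD-7 were within the NL range. The log2 fold change was 0.60 (standard error 0.22, limma adjusted p = 0.0697; exact permutation p = 0.0556), and without NL-1 and NL-8 it was 0.84 (adjusted p = 0.0306). *Bloc1s1*, which overlaps *Rdh5* on the same strand, was at 0.871 ± 0.269 and 0.874 ± 0.156 FPKM (SD, n = 5 each).
*Lrat*, on chromosome 3 from 82892579 to 82903973 on the minus strand, encodes the acyltransferase that stores retinol as esters, and was the least abundant member. NL retinas had 1.83, 1.73, 1.67, 1.31 and 2.85 FPKM, and LD retinas had 1.68, 2.47, 2.99, 2.18 and 3.69 FPKM. The groups overlapped, with the highest value of each in retina 8. The log2 fold change was 0.45 (standard error 0.23, limma adjusted p = 0.187; exact permutation p = 0.111), and without NL-1 and NL-8 it was 0.66 (adjusted p = 0.0868). The antisense gene *Rbm46os* overlaps *Lrat*.

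**Figure D2:**
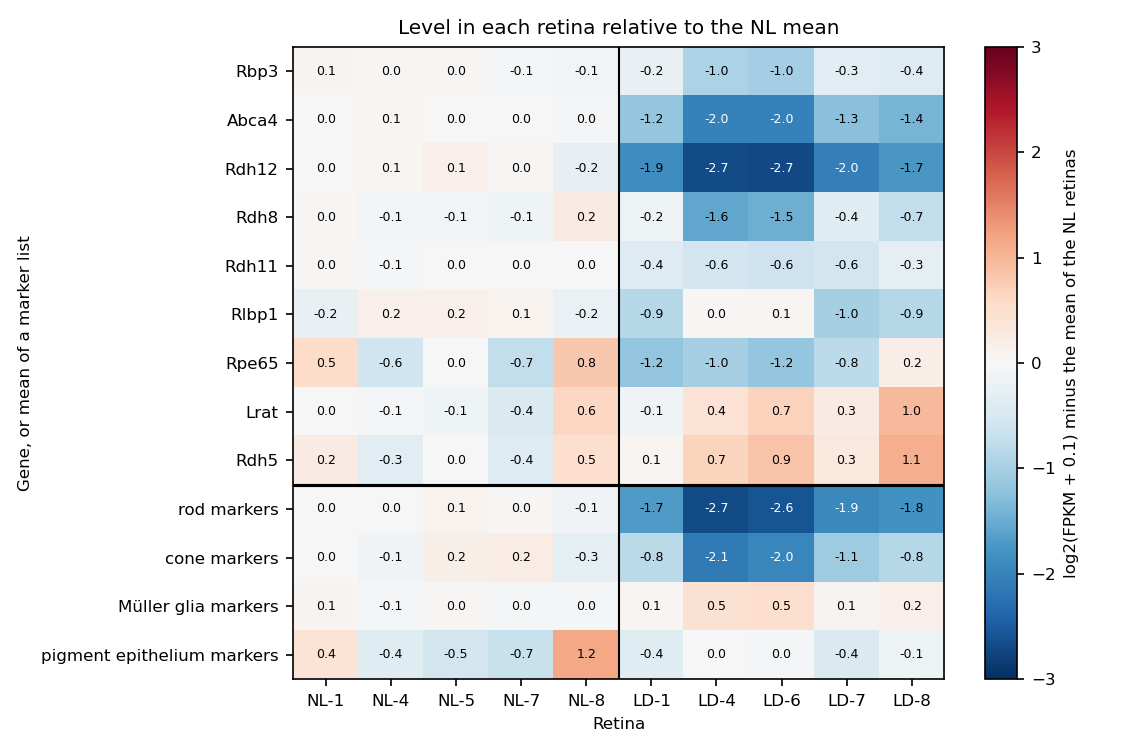
Each cell gives log2(FPKM + 0.1) of a gene, or the mean over a marker list, in 1 retina (columns) minus the mean of the 5 NL retinas; blue is lower and red is higher. *Rdh12* and the rod markers share the darkest cells in LD-4 and LD-6, where *Rlbp1* is near 0.

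By mean FPKM the NL order was *Rbp3*, *Rlbp1*, *Abca4*, *Rdh12*, *Rdh8*, *Rdh11*, *Rpe65*, *Rdh5* and *Lrat*. Neighbours whose NL values overlapped were *Rlbp1* and *Abca4*, *Rdh12* and *Rdh8*, *Rdh11* and *Rpe65*, and *Rpe65* and *Rdh5*. After LD, *Rdh8* (45.8 FPKM) came before *Abca4* (43.1 FPKM) and *Rdh12* (23.8 FPKM), and *Rdh5* (8.96 FPKM) before *Rpe65* (7.36 FPKM). Among LD neighbours, values overlapped for *Rlbp1* and *Rdh8*, *Rdh8* and *Abca4*, *Abca4* and *Rdh12*, *Rdh11* and *Rdh5*, and *Rdh5* and *Rpe65*. The LD values of *Rdh8* and *Rdh12* overlapped too, and *Abca4* was above *Rdh8* in LD-4, LD-6 and LD-8.

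Each member was also set against marker genes of its cell type (*Rdh11*, which several cell types use, against the rod markers), as the log2 ratio of the gene to the mean of the list in the same retina, refitted in limma over all genes. All 10 rod markers were called lower, with a median log2 fold change of -2.17, and their summed level was 10023 to 12211 FPKM in NL and 1565 to 3061 FPKM in LD retinas. Of 9 cone markers 4 were called lower, with a median log2 fold change of -0.96. Relative to the rod markers, *Rdh12* differed by -0.07 (standard error 0.14, adjusted p = 0.657; exact permutation p = 0.333), with overlapping groups. The other photoreceptor members and *Rdh11* were higher relative to the rod markers in every LD retina than in any NL retina. The change of this ratio was 0.56 (standard error 0.15, adjusted p = 0.00173) for *Abca4*, 1.29 (0.18, 4.33e-06) for *Rdh8*, 1.56 (0.19, 9.08e-07) for *Rbp3* and 1.66 (0.18, 4.80e-07) for *Rdh11*. Since 94.2% of all genes passed the threshold against a list that itself fell this far, passing it does not set these genes apart from other genes. The distance from the list also depends on how its level is taken. With the median of the marker levels in place of their mean, *Abca4* differed by -0.04 (adjusted p = 0.735) and *Rdh12* by -0.67 (adjusted p = 4.25e-04), and with the median after each marker was centred the values were 0.58 and -0.05.
*Rlbp1* was lower relative to 10 Müller glia markers, by a log2 difference of -0.78 (standard error 0.16, limma adjusted p = 0.00529), where 12.4% of genes passed the same threshold in either direction. The ratio ranged from -0.32 to 0.21 across NL and from -1.09 to -0.42 across LD retinas, so LD-4 and LD-6 were then also below the NL range. The adjusted p was above 0.01 in 10 of 22 alternatives, at most 0.0282. The size also depended on how the list's level was taken. With the median of the marker levels the difference was -1.44 (limma adjusted p = 3.89e-05). With the median after each marker was centred it was -0.83 (adjusted p = 0.00191). The list itself was mixed. *Glul*, the glutamine synthetase of Müller glia, was called lower (log2 fold change -2.09), while *Clu* (1.06) and *Vim* (2.02), an intermediate filament of reactive glia, were called higher, and the median of the 10 was 0.23. The summed level was 1583 to 1848 FPKM in NL and 1275 to 1585 FPKM in LD retinas. This sum leans on *Glul*, which went from 711 ± 94.8 to 165 ± 8.77 FPKM (SD, n = 5 each). The mean log2 level of the 10 markers was instead 0.25 higher in LD than in NL retinas.
Relative to 10 RPE markers, where 3.76% of genes passed, no RPE member did. The change was -0.58 (standard error 0.39, limma adjusted p = 0.690) for *Rpe65*, 0.65 (0.44, 0.717) for *Lrat* and 0.80 (0.39, 0.355) for *Rdh5*. Without NL-1 and NL-8 the changes for *Lrat* and *Rdh5* were 0.33 (adjusted p = 0.245) and 0.52 (adjusted p = 0.0768), and without LD-4 and LD-6 that for *Rpe65* was -0.26 (adjusted p = 0.955). None of the 10 RPE markers was called or at 0 in any retina, and their summed level was 53.9 to 152 FPKM in NL and 61.0 to 112 FPKM in LD retinas. Much of this sum was *Ttr*, at 35.8 to 97.8 FPKM in NL and 44.0 to 82.7 FPKM in LD retinas. The RPE list was mixed too, with log2 fold changes from -1.12 (*Pmel*) to 0.29 (*Ttr*). NL-8 had the highest sum of RPE markers and the highest NL value of each of the 3 RPE members, and the part of RPE tissue left on single retinas was not tested. Of 6 myeloid markers, 5 were called higher, their summed level being 3.66 to 7.68 FPKM in NL and 17.1 to 26.8 FPKM in LD retinas.

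**Figure D3:**
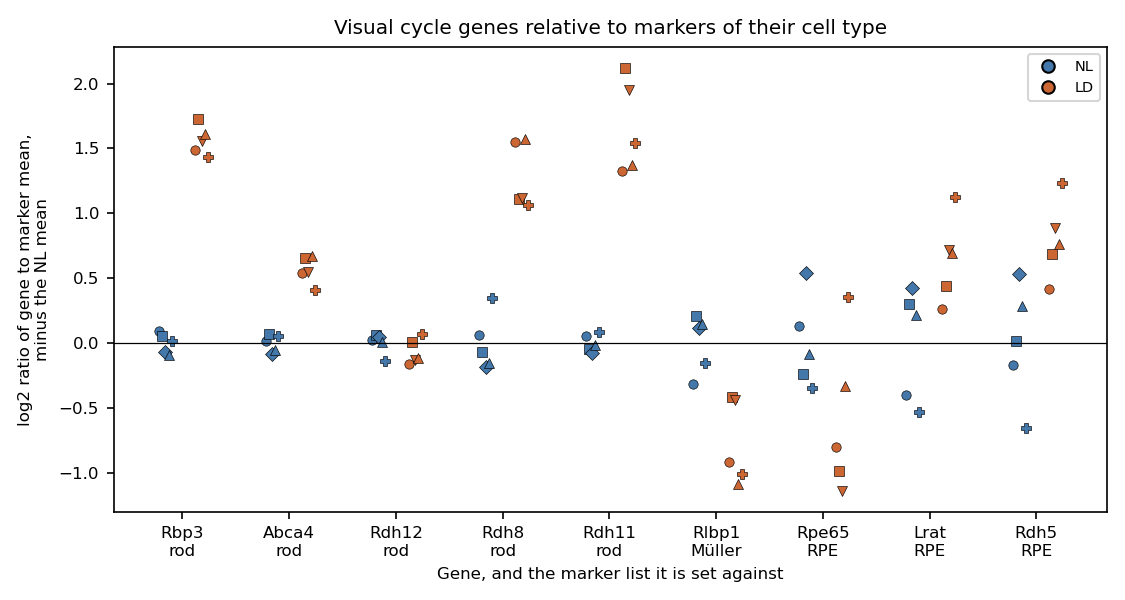
Log2 ratio of each member to the mean of its marker list, minus the NL mean (vertical axis), in the 5 NL (blue) and 5 LD (orange) retinas, with symbol shapes for the retina's number as in the plot of FPKM by retina. *Rdh12* stays within -0.16 and 0.07 in LD retinas, *Abca4*, *Rdh8*, *Rbp3* and *Rdh11* lie above all NL points, and *Rlbp1* lies below them.

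Of 24 other retinoid genes, 21 passed the filter (0.1 FPKM or more in 5 or more retinas). Among these, 2 were called, both higher, against 4.13% of all genes called higher, and their median log2 fold change was 0.17. The called genes, *Aldh1a3* and *Cyp26a1*, make and break down retinoic acid, and both were near the low end of the table.
*Aldh1a3*, on chromosome 7 from 66390890 to 66427517, encodes a dehydrogenase that makes retinoic acid from retinal. It was at 0.466, 0.0714, 0.0320, 0.0612 and 0.285 FPKM in the NL retinas (3 to 46 reads) and at 0.666, 0.673, 0.726, 1.27 and 1.16 FPKM in the LD retinas (63 to 134 reads). The groups did not overlap, NL-1 and NL-8 being the highest of theirs. Its log2 fold change was 2.01 (standard error 0.41, limma adjusted p = 0.00426), and 0.68 with a pseudocount of 1.
*Cyp26a1*, on chromosome 19 from 37697808 to 37701528, encodes an enzyme that degrades retinoic acid. NL retinas had 0.290, 1.17, 0.667, 0.664 and 0.394 FPKM, and LD retinas had 1.83, 3.28, 3.05, 1.88 and 1.12 FPKM. LD-8 was just under NL-4, the other LD retinas being higher than every NL retina. Its log2 fold change was 1.69 (standard error 0.36, limma adjusted p = 0.00546), and it was 0.96 with a pseudocount of 1. Without LD-4 and LD-6, *Aldh1a3* (2.19, adjusted p = 0.0168) and *Cyp26a1* (1.30, adjusted p = 0.0425) were no longer called, and neither was called without NL-5 or without LD-7.
The 3 most abundant genes of this list were *Ttr*, *Dhrs3* and *Degs1*. *Ttr*, the transthyretin that carries retinol-binding protein and is one of the RPE markers, was at 57.6 ± 23.9 and 68.3 ± 17.2 FPKM (SD, n = 5 each; log2 fold change 0.29, limma adjusted p = 0.467). *Dhrs3*, a dehydrogenase that reduces retinal, went from 26.9 ± 1.63 to 18.5 ± 2.48 FPKM (SD, n = 5 each; log2 fold change -0.54, limma adjusted p = 0.00104), under 2-fold. *Rrh*, an opsin of the RPE, likewise stayed under 2-fold, with a log2 fold change of -0.63 and an adjusted p of 0.00170. *Degs1*, a lipid desaturase, was at 17.0 ± 0.937 and 19.3 ± 2.56 FPKM (SD, n = 5 each; log2 fold change 0.18, limma adjusted p = 0.161).

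**Figure D4:**
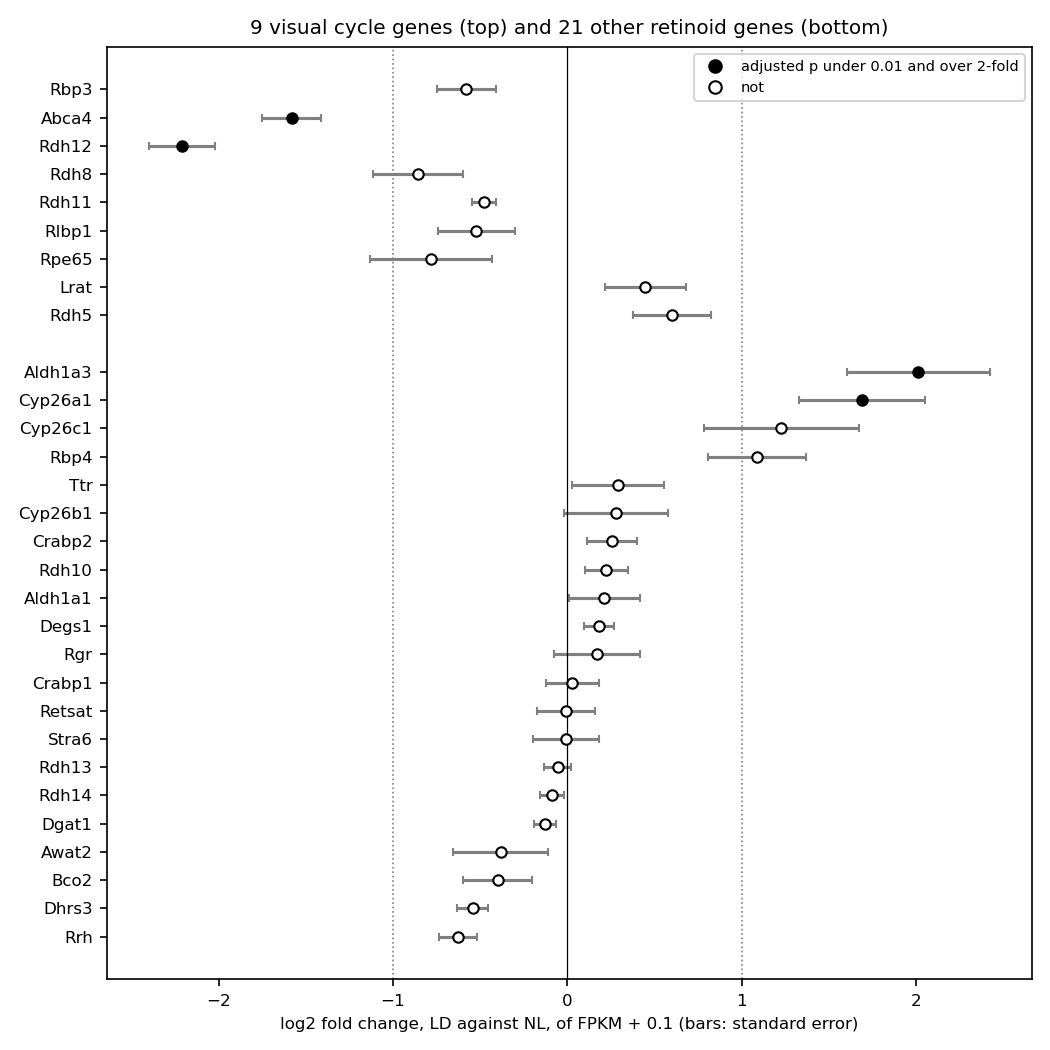
Log2 fold change of FPKM + 0.1, LD against NL (horizontal axis), with its standard error, for the 9 members and the 21 other retinoid genes tested; filled points are called and dotted lines mark 2-fold. *Rdh12* (-2.21) and *Abca4* (-1.58) are filled on the left, *Aldh1a3* (2.01) and *Cyp26a1* (1.69) on the right.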

How the data were processed

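Neural retina RNA from 5 NL and 5 LD samples was sequenced. The submitters' processing notes name TopHat2 2.0.9, Bowtie2 2.0.6 and the build mm8, but the gene positions in the table are on GRCm38 (the same in GENCODE M21 for 9 of 9 members). The counting program, the annotation and the use of strand are not given in the sources used here. The authors deposited FPKM values. Every value corresponded to a whole number of reads (100% of values, within 0.01), so reads were recovered. The authors' scaling holds a factor per retina of 0.951 to 0.968 in NL and 1.041 to 1.069 in LD. Without it the median log2 fold change of all genes is 0.11 and not -0.01.

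Genes reaching 0.1 FPKM in 5 or more retinas were fitted on log2(FPKM + 0.1) in limma 3.58.1 (R 4.3.3) with an intensity trend, checked on simulated data. Exact tests used scipy 1.17.1, and plots matplotlib 3.10.9. Named genes were the members, the called and the 3 most abundant genes of the other retinoid list, marker genes at the ends of a list or that a result turns on, and the 3 nearest profiles of *Rdh12*, *Rlbp1* and *Rpe65*. *Rrh* and *Tyrp1* were named after their values were seen. A gene of the retinoid list is not reported here and is in no count of that list. Members and lists were chosen with earlier results of these data known. There were 15 planned and 3 added alternatives.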

Additional observations from a re-analysis of the deposited data

Results flagged for a closer look

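*Rpe65* was at 13.7 FPKM in LD-8, far from the 5.20 to 6.86 FPKM of the other LD retinas, a gap of 0.804 of the group's whole range. It was the 1 outlier by Dixon's test among 28 groups tested, where chance would give 1.4. LD-8 also had the highest values of *Rdh5* (12.2 FPKM) and *Lrat* (3.69 FPKM) among the 10 retinas. The mean log2 level of the RPE markers in LD-8, -0.14 relative to the NL mean, was below that in LD-4 (-0.02) and LD-6 (-0.02). The summed level of these markers was instead the highest of the LD retinas in LD-8, at 112 FPKM, with 110 FPKM in LD-6 and 105 FPKM in LD-4. Whether left-over RPE tissue bears on these values was not tested.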

How the results depend on the processing

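*Rdh12* and *Abca4* were called under all 25 alternatives. With single retinas left out, 2 to 3 members were called (3 without LD-1). The number of members called, 2, became 5, all lower, at an adjusted p under 0.05 with no minimum fold. There 6818 of the 24508 genes tested were called, 3275 of them lower. The 2 other retinoid genes called became 5 of the 21 tested at that threshold. They became 3 as TPM and without the factor per retina, where 1751 of 27719 and 1667 of 24528 genes were called. Only 1 was called with a filter of 1 FPKM, which *Aldh1a3* did not pass, or without NL-1 and NL-8. In limma 0 were called with a pseudocount of 1, with the closest pairs averaged, without LD-4 and LD-6, and over the retinas whose numbers both groups share, with or without a replicate block, where 5 to 6 genes had an unadjusted p under 0.05; limma-voom on the reads of all retinas called 2. Leaving out single retinas gave 0 to 2 (0 without NL-5 or without LD-7, 2 without LD-1, and 1 without any other retina). *Aldh1a3* lost its call in 10 of 24 alternatives (adjusted p 3.22e-04 to 0.0501) and *Cyp26a1* in 14 of 25 (0.00279 to 0.0581).

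The 5 members that passed against markers, 4 of them against the rod list where 94.2% of all genes passed, became 3 with the closest pairs averaged and over shared numbers, with or without the block, and 4 to 5 with single retinas left out. Set against the median of the rod markers' levels, *Abca4* moved by -0.0401 (adjusted p = 0.735) and *Rdh12* by -0.67 (adjusted p = 4.25e-04). By the median taken after each marker was centred on its own mean, they moved by 0.58 and -0.05. *Rlbp1* against Müller markers missed the threshold in 10 of 22 alternatives (adjusted p 3.89e-05 to 0.0282).

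Of the 6 pairs of photoreceptor genes, 5 differed at an adjusted p under 0.05 with any single retina left out (range 5 to 5), but 0 with the closest pairs averaged (smallest adjusted p 0.0686) and 0 with the block (0.15), where so few samples cannot pass. Shared numbers gave no sign of pairing: deviations of same-numbered retinas correlated at -0.0893 to 0.0656, which cannot exclude a weak pairing. Over these retinas 808 genes were called with the block and 1182 without. All genes called, 1595, became 816 with a pseudocount of 1, 6818 at an adjusted p under 0.05 and 1076 with the closest pairs averaged. The low FPKM of *Lrat* and the retinoic acid genes limits their precision.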

Other observations

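Among 12689 protein-coding genes whose mean reached 1 FPKM in either group, those whose log2 levels over the 10 retinas were nearest to those of *Rdh12*, each profile centred on its mean, were *Prph2* (root mean square difference 0.0814), *Slc24a1* (0.0926) and *Susd3* (0.107). *Prph2*, a structural protein of photoreceptor discs that is also one of the rod markers, was at 1266 ± 109 and 301 ± 88.4 FPKM in NL and LD retinas (SD, n = 5 each). *Slc24a1*, the sodium and calcium exchanger of rods, was at 274 ± 13.4 and 63.5 ± 20.04 FPKM (SD, n = 5 each). Nearest to *Rlbp1* were *Ndrg2* (0.151), *Rnd2* (0.152) and *Vsx1* (0.160), a transcription factor of bipolar cells, none of which was called. For *Rpe65* the nearest genes were *Nos3* (0.320), *Clic6* (0.333) and *Glmn* (0.398), all larger differences than those for *Rdh12* and *Rlbp1*.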
